A study of Rattus norvegicus with 38 samples.

Results

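The change in DNA methylation between P2 and P10 was followed in the 5 LBN pups of cohort 1, named LBN2, LBN3, LBN4, LBN9 and LBN12. They gave 10 of the 38 swabs and are 5 of the 19 pups of the study, and they were chosen by their labels alone. The pups were Sprague Dawley rats. Both cheeks were swabbed on P2, before the pups were assigned to cages, and again on P10, after a week in cages with limited bedding and nesting material (LBN). The same swabs were taken from 6 controls of cohort 1, raised in cages with standard bedding, and from 4 LBNs and 4 controls of cohort 2. Pups of several litters were mixed on P2 and given to dams at random, and the labels name neither the sex nor the dam of a pup. DNA was measured by reduced representation bisulfite sequencing (RRBS), which reads the CpG-rich fragments left by the enzyme MspI. For each swab, the authors deposited the methylation level, the percentage of methylated reads, of the same 3417 differentially methylated regions (DMRs). Read counts do not accompany the levels, so depth is unknown and a single level carries no stated error.

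A methyl group on the cytosine of a CpG is copied at each cell division, and patterns of methylation differ between cell types and shift as tissues mature after birth. Low methylation at promoters and enhancers often goes with an open, usable element, while gene bodies are often highly methylated. A cheek swab holds epithelial cells and white blood cells, and both kinds of cell mature and renew in the first days of life. A change in the share of each cell type and a change of methylation within cells cannot be told apart in these data.

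The positions of the DMRs are on the build rn6, as the files give them. Gene names were available only for 458 of the DMRs, which the study had listed for their weight on its principal components. Promoters are the elements where methylation is most often read against gene activity, so the promoters of 2 genes with a changed promoter DMR are shown here. Hsp90b1 encodes a chaperone of the endoplasmic reticulum and lost methylation, and Nrp1 encodes a co-receptor for semaphorins and vascular growth factors and gained it. The sequences are the 250 bases before the gene start in RefSeq (build GRCr8, chr7:23012294-23012543 on the minus strand and chr19:73256307-73256556 on the plus strand). The capitals mark the MspI site CCGG, which reads the same on both strands.
Hsp90b1: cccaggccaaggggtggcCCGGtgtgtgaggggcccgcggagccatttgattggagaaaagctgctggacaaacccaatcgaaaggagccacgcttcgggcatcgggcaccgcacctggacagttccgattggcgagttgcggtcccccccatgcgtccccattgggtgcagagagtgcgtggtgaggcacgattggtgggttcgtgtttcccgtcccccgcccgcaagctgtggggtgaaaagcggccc
Nrp1: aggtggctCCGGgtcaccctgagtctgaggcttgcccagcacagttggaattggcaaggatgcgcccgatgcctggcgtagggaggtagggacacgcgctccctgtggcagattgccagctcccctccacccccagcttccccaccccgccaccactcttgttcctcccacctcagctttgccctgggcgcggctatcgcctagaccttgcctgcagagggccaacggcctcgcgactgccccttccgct
Each holds 1 CCGG, with 19 CG pairs for Hsp90b1 and 14 for Nrp1. CCGG was found in 46.2% of the 33469 such windows in RefSeq, whose median was 5 CG pairs. Because the builds differ, it was not determined whether either DMR lies within these bases or near the marked CCGG.

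Before any comparison, the P2 swabs of LBN2 and LBN3 stood apart from the other 8 swabs. Across the 3417 DMRs their levels correlated with each other at r = 0.904, and with the other 8 swabs at 0.332 to 0.650. Among those 8 swabs, 3 from P2 and 5 from P10, the correlations lay between 0.755 and 0.910. These correlations are across DMRs of single swabs and describe likeness only. The P2 swabs of 4 cohort 1 controls resembled those of LBN2 and LBN3 (r between 0.814 and 0.928), and the P2 swabs of the other 2 controls, C6 and C9, did so less (0.618 to 0.663). The P10 swabs of C6 and C9 resembled them more, at 0.783 to 0.835, and those of the other 4 controls lay between 0.442 and 0.708. All of these P2 swabs precede the assignment to cages. The labels name no batch of collection or library, and the part of one in this split was not tested. LBN2 and LBN3 were therefore left out together as an alternative, and the counts, the lists and the DMRs that passed are given without them, singly or as a range.

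**Figure D1:**
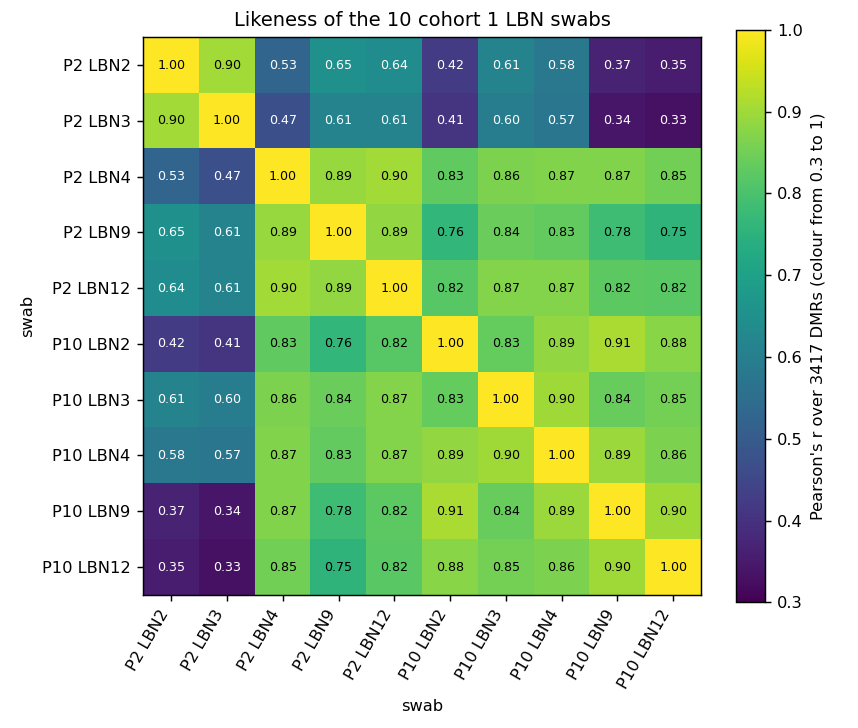
Pearson's r of the methylation levels of 3417 DMRs between each pair of the 10 cohort 1 LBN swabs, with P2 swabs in the upper rows and P10 swabs in the lower rows and the colour scale running from 0.3 to 1. The P2 swabs of LBN2 and LBN3 match each other at 0.904 and every other swab at 0.650 or less.

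The size of the change differed between the 5 pups. In LBN2, 51.9% of the DMRs moved by more than 20 percentage points, 1016 up and 757 down, and in LBN3 37.8% did. The share was 19.7% in LBN9, 18.7% in LBN12 and 8.78% in LBN4, where 106 DMRs rose and 194 fell by that much. Within a pup, P2 and P10 levels correlated across DMRs at 0.424 in LBN2, 0.597 in LBN3, 0.782 in LBN9, 0.820 in LBN12 and 0.866 in LBN4. The changes of LBN2, LBN3, LBN9 and LBN12 correlated with each other at 0.529 to 0.753, while the change of LBN4 correlated with them at −0.192 to 0.217. Of the DMRs at which 4 pups moved one way and 1 pup did not, LBN4 was the pup apart at 962, against 77 to 193 for each other pup. At 622 of these 962 DMRs the other pups were higher at P10.

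**Figure D2:**
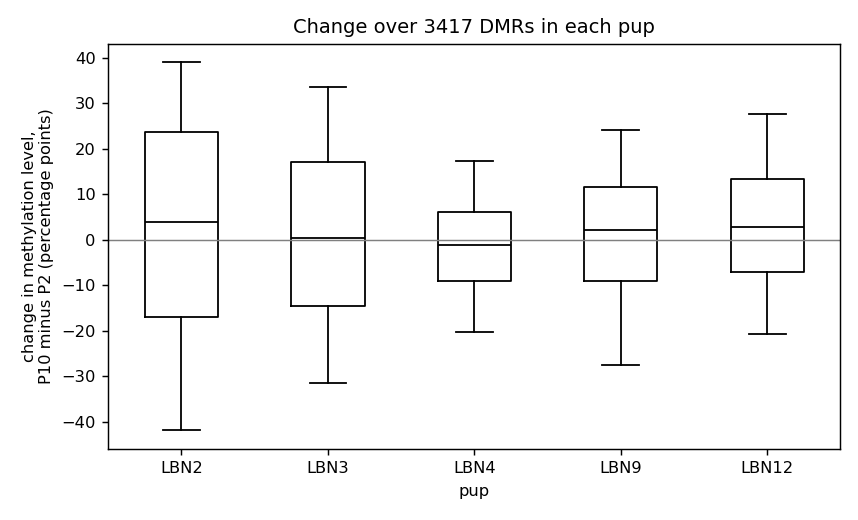
Change in methylation level from P2 to P10 (percentage points, vertical axis) over 3417 DMRs in each pup, with boxes from the lower to the upper quartile, a line at the median and whiskers from the 5th to the 95th percentile. LBN2, where 51.9% of the DMRs moved by more than 20 points, has the widest box and LBN4, where 8.78% did, the narrowest.

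The mean level over all DMRs moved by less than the spread between pups. It went from 51.7% ± 1.64 at P2 to 52.7% ± 1.47 at P10 (SD over 5 pups), a change of 1.03 ± 1.73 percentage points (two-sided exact sign-flip permutation test, p = 0.3125, where 5 pups can give no p below 0.0625). The mean rose by 2.17 points in LBN2, 0.823 in LBN3, 0.575 in LBN9 and 3.06 in LBN12, and it fell by 1.48 in LBN4. Without LBN2 and LBN3 the change was 0.718 points. In the same test, the mean changed by −1.58 ± 2.46 points in cohort 1 controls (n = 6), −6.79 ± 2.34 in cohort 2 LBNs (n = 4) and −5.88 ± 2.23 in cohort 2 controls (n = 4), with an exact p of 0.219, 0.125 and 0.125. With 4 pups the exact p cannot go below 0.125.

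DMR by DMR, levels were compared within pup with limma on the log-odds of methylation, log2((percent + 1)/(100 − percent + 1)), with the pup as a block and Benjamini-Hochberg adjustment over all 3417 DMRs. Log-odds changes are therefore on a log2 scale that stretches levels near 0% and 100%. At an adjusted p of 0.05, 563 DMRs changed, 16.5% of those tested: 315 were lower at P10 (9.22%) and 248 were higher (7.26%). At an unadjusted p of 0.05 the number was 1374. The DMRs had been selected by the authors for a change from P2 to P10 in at least 2 pups of a group, these pups included, so these counts describe a set chosen for change. The 315 fell from a mean of 55.7% ± 9.04 to 33.8% ± 5.55 (SD over 5 pups), with a median change of −21.9 points. The 248 rose from 38.6% ± 9.45 to 59.6% ± 5.61, with a median change of 21.0 points.

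The P2 levels of LBN2 and LBN3 lay apart in these sets too. Over the 315 lower DMRs the mean P2 level was 65.2% in LBN2 and 65.7% in LBN3, and 47.3%, 52.0% and 48.5% in LBN4, LBN9 and LBN12. Over the 248 higher DMRs it was 27.9% and 29.5% in LBN2 and LBN3, and 49.4%, 41.7% and 44.3% in the others. LBN4 changed least in both sets, by −9.38 points where the others changed by −16.9 to −35.7, and by 5.94 points where the others rose by 19.7 to 32. These sets were chosen from the same 10 swabs, so the values describe them and test nothing.

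Counted by direction alone, 949 DMRs (27.8%) moved the same way in 5 of 5 pups, 483 down (14.1%) and 466 up (13.6%). At 338 DMRs (9.89%) the 5 P2 levels and the 5 P10 levels did not overlap. Of the 315 lower DMRs, 246 fell in 5 of 5 pups and 126 had no overlap. Of the 248 higher DMRs, 180 rose in 5 of 5 pups and 102 had no overlap.

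The number of DMRs past the threshold depended on which pups were in the fit. It was 18 without LBN2, 0 without LBN3 (929 at an unadjusted p of 0.05), 144 without LBN9 and 15 without LBN12, and it was 1539 without LBN4. With LBN2 and LBN3 both left out it was 0 (569 unadjusted). Without the pup as a block it was 157. The log-odds changes themselves moved less: without LBN2 and LBN3, the median over the 315 lower DMRs was −1.11, against −1.47 with 5 pups, and over the 248 higher DMRs 1.09, against 1.43. The sign stayed the same at each of the 563, while it did so at 84.2% of all DMRs, and the 3 remaining pups had also helped to choose the 563.

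**Figure D3:**
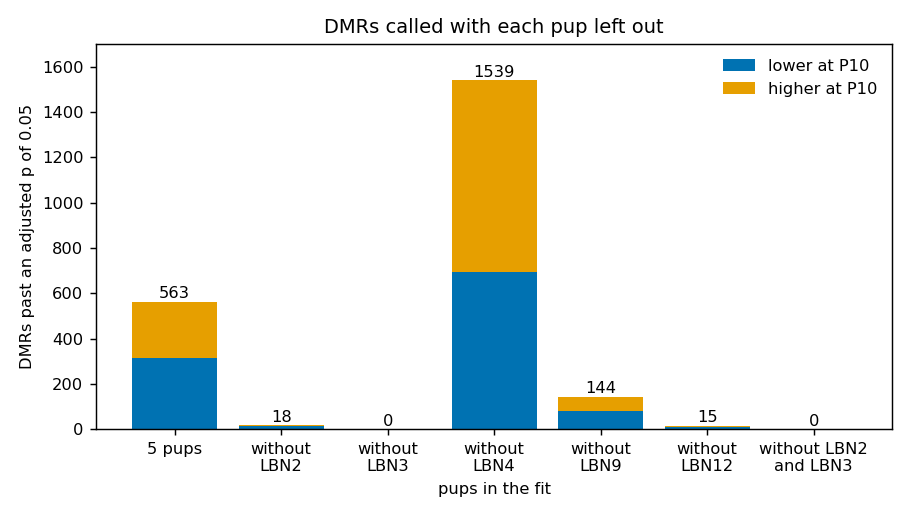
Number of DMRs past an adjusted p of 0.05 in the limma test (vertical axis) with 5 pups and with 1 or 2 pups left out, split into lower and higher at P10. The number runs from 0 without LBN3 to 1539 without LBN4.

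The largest falls and rises were taken among DMRs past the threshold that moved the same way in 5 of 5 pups, 12 in each direction. Their adjusted p lay between 0.00697 and 0.0256. At 19 of the 24 the P2 and P10 levels did not overlap, against 9.89% of all DMRs, but the 24 had been picked for large changes. Without LBN2 and LBN3, the log-odds changes lay between −2.31 and −1.30 for the falls and between 1.06 and 2.23 for the rises. Their signs could not turn, because the DMRs were picked for moving the same way in every pup. None passed the threshold without these 2 pups (lowest adjusted p, limma, 0.154). Of the 12 falls, 5 lay on chromosome 12, which holds 189 of the 3417 DMRs, and 0 of the 12 rises did. This was seen only after the DMRs had been ranked. Of the 12 falls, 11 were also lower on average in cohort 1 controls, 11 in cohort 2 LBNs and 12 in cohort 2 controls. Of all DMRs, 52.9%, 70.3% and 58.9% were lower there. Of the 12 rises, 10, 3 and 10 were also higher on average in these groups, where 47.1%, 29.7% and 41.1% of all DMRs were higher.

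Among the falls, the DMR of Prkab1, a regulatory subunit of the energy sensor AMPK, had the narrowest range of levels at each age among the 12. It is intergenic, at chr12:46314322-46314326. Its level at P2 was 64.5% in LBN2, 66.7% in LBN3, 65.7% in LBN4, 60.5% in LBN9 and 58.8% in LBN12, and at P10 it was 29.2%, 21.2%, 22.3%, 24.4% and 25%. The P2 and P10 levels were far apart in every pup, LBN4 included. The log-odds change was −2.37 (standard error 0.39, limma adjusted p = 0.00697), and −2.31 without LBN2 and LBN3. This DMR also fell in every pup of the other groups. Its mean change was −32.3 ± 14.1 points in cohort 1 controls, −40.5 ± 16.5 in cohort 2 LBNs and −50.7 ± 13.5 in cohort 2 controls.

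Pecr encodes a peroxisomal enzyme of fatty acid elongation, and its DMR lies at the transcription termination site (TTS), at chr9:79600940-79600941. It fell from 73.3% to 20.7% in LBN2, from 66.7% to 22.4% in LBN3, from 52.9% to 30.2% in LBN4, from 63.2% to 18.8% in LBN9 and from 43.8% to 11.5% in LBN12. All 5 pups fell and no P10 level reached the lowest P2 level. The log-odds change was −2.54 (standard error 0.41, limma adjusted p = 0.00697), and −2.22 without LBN2 and LBN3. Every pup of the other groups fell here too, by 28.0 ± 7.06 points in cohort 1 controls, 28.9 ± 6.99 in cohort 2 LBNs and 45.3 ± 11.6 in cohort 2 controls.

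The intronic DMR of Nlrp1a, a sensor of the inflammasome, fell from an already low level. It is at chr10:57747571-57747572, and at P2 it was 22.2%, 28.9%, 20.2%, 24.4% and 20.4% in LBN2, LBN3, LBN4, LBN9 and LBN12. At P10 it was 4.0%, 13.9%, 10.2%, 7.95% and 1.11%. The mean went from 23.2% ± 3.59 to 7.44% ± 5.04 (log-odds change −2.06, standard error 0.43, limma adjusted p = 0.0184). In cohort 1 controls the mean change of this DMR was 0.692 ± 18.3 points, rising in 3 of 6. It was −0.508 ± 11.4 points in cohort 2 LBNs and −16.0 ± 19.7 points in cohort 2 controls. The difference in log-odds change was −2.01 from cohort 1 controls (limma adjusted p = 0.795) and −1.88 from cohort 2 LBNs (limma adjusted p = 0.0458).

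In other falls LBN4 or the P2 levels of LBN2 and LBN3 set the spread. The intronic DMR of Capn8, a calpain protease best known from mucous epithelium, fell by 37.8 to 49.7 points in 4 pups and by 2.05 points in LBN4, where it went from 47.5% to 45.5%. The DMR of Myl2, a myosin light chain of heart muscle, was at 73.2% and 65.6% at P2 in LBN2 and LBN3 and at 30.9%, 41.7% and 24.5% in the other pups. It fell in 5 of 5 pups, to between 7.06% and 33.3%, so the levels of the ages overlapped. The fall with the largest log-odds change, −2.96 at chr6:126343471-126343472, has no gene name here. Its P2 levels of 95.5% and 96.2% in LBN2 and LBN3 stood above 74.4% to 77.4% in the others, and without these 2 pups the change was −1.78.

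Among the rises, Pik3cd encodes the catalytic subunit of a phosphoinositide 3-kinase of white blood cells. Its DMR is intergenic, at chr5:166629752-166629792. The P2 levels were 17.8%, 13.8%, 27.0%, 14.8% and 33.8% in LBN2, LBN3, LBN4, LBN9 and LBN12, and the P10 levels were 52.7%, 45.5%, 45.4%, 45.6% and 73.9%. Each pup rose and the levels did not overlap, with LBN12 highest at both ages. The log-odds change was 2.07 (standard error 0.40, limma adjusted p = 0.0133), and 1.92 without LBN2 and LBN3.

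Bcl3, an atypical IκB protein that acts with NF-κB in the nucleus, had 2 DMRs and both rose. The intronic one, at chr1:80731734-80731753, was at 20.2%, 34.0%, 24.8%, 31.8% and 28.1% at P2 and at 42.9%, 65.6%, 47.5%, 61.9% and 68.5% at P10, in the same order of pups. The exonic one, at chr1:80733682-80733689, was at 12.3%, 11.2%, 17.1%, 11.2% and 24.1% at P2 and at 32.8%, 27.3%, 32.4%, 32.8% and 47.6% at P10. Neither overlapped between ages, and LBN4 rose with the others at both. The log-odds changes were 1.80 and 1.55 (limma adjusted p = 0.0222 and 0.0239), and 1.87 and 1.5 without LBN2 and LBN3. Both DMRs also rose in every pup of the other groups. The intronic one rose by 27.6 ± 3.72 points in cohort 1 controls, 31.4 ± 3.12 in cohort 2 LBNs and 33.6 ± 13.2 in cohort 2 controls. In the same order of groups, the exonic one rose by 15.8 ± 11.6, 7.06 ± 4.68 and 21.0 ± 5.57 points.

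The exonic DMR of Nfic, a transcription factor of the nuclear factor I family, rose from 35.8% ± 7.86 to 68.4% ± 8.50 (limma adjusted p = 0.0216). It gained least in LBN3, from 48.2% to 56.9%, and LBN4 went from 36.4% to 68.8%. In an intron of Efnb2, a membrane-bound ephrin ligand, the DMR rose from 22.6% ± 6.24 to 52.0% ± 10.5 (limma adjusted p = 0.0224). It rose by 8.44 points in LBN4, from 33.0% to 41.4%, and to 62.4% in LBN9 and 61.8% in LBN12.

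**Figure D4:**
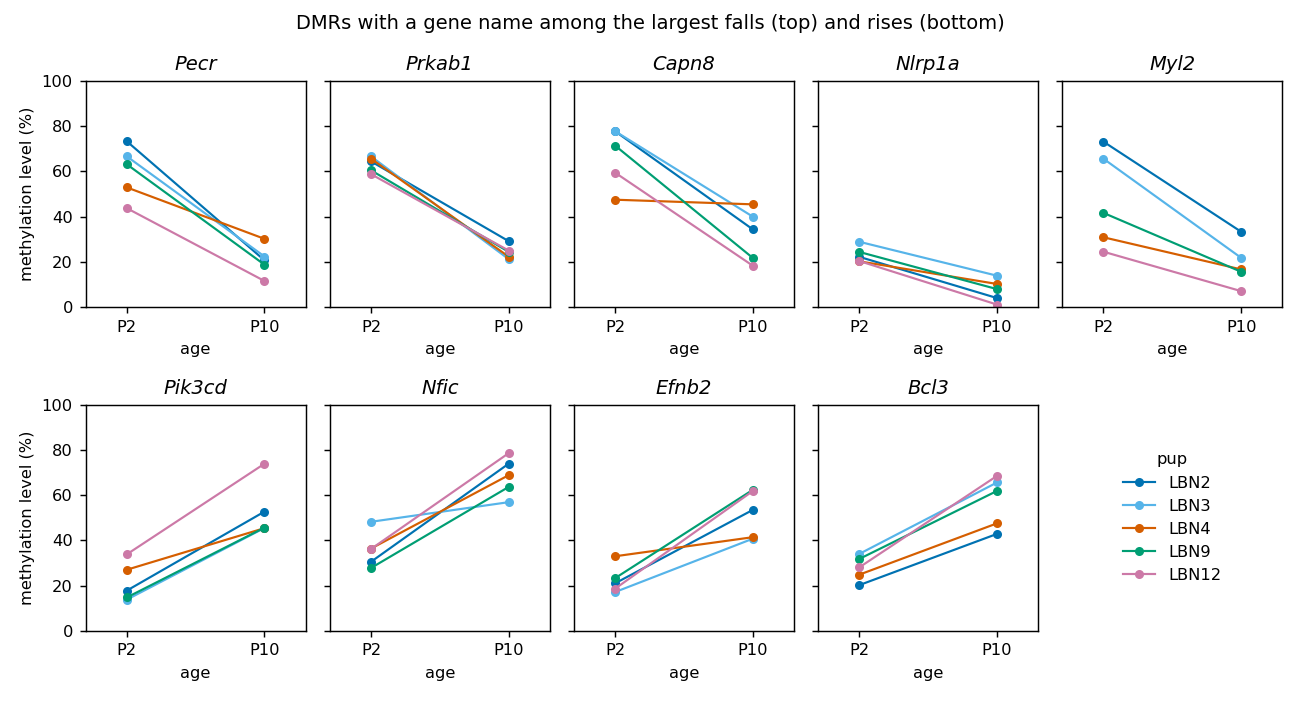
Methylation level (%) at P2 and P10 in each of the 5 pups (1 coloured line per pup) at the 9 DMRs with a gene name among the 12 largest falls (upper row) and 12 largest rises (lower row). Lines of Prkab1 run together from 58.8% to 66.7% at P2 down to 21.2% to 29.2% at P10, while LBN4 is nearly flat for Capn8.

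Gene groups were described by lists matched to the 458 DMRs with a gene name. Of these, 54 were lower and 34 higher at P10, 19.2% in all against 16.5% of all DMRs. The study had picked the 458 by their weight on its age component in controls or its experience component in all pups. The changes of these 5 pups entered the latter choice. The 458 are therefore not a random sample of the DMRs, and their counts are not independent evidence. The median log-odds change over all 3417 DMRs was 0.21, and 0.09 without LBN2 and LBN3. The counts below refer to 5 pups. Without LBN3, or without both LBN2 and LBN3, none of the DMRs in these lists passed the threshold.

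Few DMRs near transcription factors of development passed the threshold. The share was 8.33% in homeobox genes and 3.23% near other such factors, against 19.2% of all DMRs with a gene name. Of 24 DMRs in 20 homeobox genes, which pattern the body axis and organs, 0 were lower and 2 were higher, with a median log-odds change of 0.06, and of 0.29 without LBN2 and LBN3. The DMR in an exon of Hoxb5 rose from 0% to 25% in LBN2, from 9.09% to 20.2% in LBN3, from 4.84% to 12.0% in LBN4, from 10.3% to 19.6% in LBN9 and from 6.06% to 6.45% in LBN12 (limma adjusted p = 0.0374), a log-odds change of 1.75 that was 0.79 without LBN2 and LBN3. Hoxd4 had an intronic DMR that rose from 10.9% ± 3.75 to 22.3% ± 4.54 without overlap (limma adjusted p = 0.0483, log-odds change 1.21, and 0.99 without these pups). Of 31 DMRs of other developmental transcription factors, 1 was lower and 0 were higher (median −0.04, and 0.01 without LBN2 and LBN3). The 1 was an intergenic DMR of the co-repressor Skor1, at chr8:68021119-68021120, at 72.5%, 69.5%, 33.3%, 37.5% and 33.3% at P2 and at 25.6%, 29.9%, 37.0%, 15.8% and 8.14% at P10 in LBN2, LBN3, LBN4, LBN9 and LBN12. It rose in LBN4. The log-odds change was −1.80, and −1.25 without LBN2 and LBN3. The other 2 DMRs of Skor1 did not pass (limma adjusted p = 0.0958 and 0.230).

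Of 10 DMRs of NF-κB and TNF signalling, 2 were higher, both in Bcl3, and 0 were lower (median −0.33, and −0.14 without LBN2 and LBN3). The adaptor Traf1 fell in 5 of 5 pups, from 46.6% ± 7.91 to 28.7% ± 5.96, but did not pass (limma adjusted p = 0.0567). Of 19 DMRs of growth factor and Wnt signalling, 1 was lower, or 5.26% (median 0.01, and 0.22 without LBN2 and LBN3). It was intronic in Skil, a repressor of SMAD signalling, which fell from 80.6% to 32% in LBN2 and from 76.7% to 44.8% in LBN3, from 62.5% to 45.2% in LBN4 and from 73.1% to 34.0% in LBN12, and was listed at 50% at both ages in LBN9 (limma adjusted p = 0.0256). Its log-odds change was −1.68, and −1.11 without LBN2 and LBN3.

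Guidance genes, whose ligands and receptors steer growing axons and vessels, had 4 changed DMRs of 11, 2 in each direction (median 0.22, and −0.18 without LBN2 and LBN3). That is 36.4%, against 19.2% of all DMRs with a gene name, and the shares were not tested against each other. Among the ligands, Efnb2 was higher and Slit3 lower, and among the receptors, Nrp1 was higher and Nrp2 lower. The promoter DMR of Nrp1, whose promoter is printed above, was at 12.0%, 16.7%, 11.4%, 28.6% and 22.2% at P2 and at 55%, 42.3%, 41.9%, 22.2% and 30.0% at P10 in LBN2, LBN3, LBN4, LBN9 and LBN12. It rose in 4 pups and fell in LBN9 (log-odds change 1.47, limma adjusted p = 0.0407, and 0.83 without LBN2 and LBN3). Nrp2 fell at an intronic DMR from 69.7% to 13.3% in LBN2 and by 8.60 to 20.7 points in the other pups (limma adjusted p = 0.0351, log-odds change −1.52, and −1.10 without LBN2 and LBN3). Slit3 fell, also in an intron, from 59.6% and 61.9% to 14.5% and 28.4% in LBN2 and LBN3, and rose from 25.4% to 31.1% in LBN4 (limma adjusted p = 0.0386, log-odds change −1.45, and −0.74 without LBN2 and LBN3).

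Of 4 DMRs of the DNA methylation machinery and of a protein that binds unmethylated CpG islands, 1 was higher. It was the DMR in an intron of Kdm2b, which encodes that binding protein. It rose from 35.0% and 32.6% to 82.1% and 64.4% in LBN2 and LBN3, fell from 82.3% to 68.3% in LBN4 and rose to 91.8% in LBN9 and 81.0% in LBN12 (limma adjusted p = 0.0390, log-odds change 1.57, and 0.98 without LBN2 and LBN3). The DMRs of the de novo methyltransferase Dnmt3a (9.49% to 13.2%), of Gadd45b (38.3% to 33.2%) and of the dioxygenase Tet3 (34.2% to 33.8%) did not pass. Of 9 DMRs of glycan and heparan sulfate enzymes, 2 were higher and 0 lower, with a median of −0.24, and of −0.66 without LBN2 and LBN3. This share of 22.2% compares with 19.2% of all DMRs with a gene name. The 2 DMRs were intronic in the sulfotransferase Hs2st1 (72.6% ± 22.0 to 87.9% ± 9.94, limma adjusted p = 0.0288) and in the mannosidase Man1c1 (43.8% ± 21.1 to 67.3% ± 8.64, limma adjusted p = 0.0387). In Man1c1 the P2 levels were 23.0% and 19.5% in LBN2 and LBN3 and 54.8% to 66.3% in the others, and LBN4 fell from 66.3% to 59.3%. Without LBN2 and LBN3, the log-odds change went from 1.42 to 1.23 in Hs2st1 and from 1.48 to 0.65 in Man1c1.

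Of the 28 DMRs with a gene name that were placed at a promoter, 4 were lower and 1 was higher, Nrp1. Hsp90b1, whose promoter is printed above, has its DMR at chr7:27241089-27241090. It was at 65.5%, 63.8%, 52%, 61.5% and 69.6% at P2 in LBN2, LBN3, LBN4, LBN9 and LBN12 and at 32.1%, 20.6%, 52.4%, 21.2% and 40% at P10 (log-odds change −1.78, limma adjusted p = 0.0239, and −1.41 without LBN2 and LBN3). It fell in 4 pups and was flat in LBN4. Tspo, a protein of the outer mitochondrial membrane, fell from 19.7% to 5.77% on average (0.0222), in LBN4 from 37.4% to 8.72%, and the means fell for the choline transporter-like gene Slc44a3 from 32.6% to 13.8% (0.0457) and Clptm1l from 34.1% to 18.0% (0.0461). Slc44a3 rose in LBN4, from 8.22% to 15.3%. Without LBN2 and LBN3 the log-odds change was −2.08 for Tspo (−1.83 with 5 pups), −0.89 for Slc44a3 (−1.40) and −1.48 for Clptm1l (−1.23). By place, 17.9% of promoter DMRs, 12.9% of 93 exonic, 23.8% of 202 intronic and 16.8% of 113 intergenic DMRs changed, against 19.2% of all DMRs with a gene name.

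Markers of the cells that a swab holds were also described. Of 13 DMRs near epithelial genes, 3 were lower and 1 was higher, with a median log-odds change of 0.11, and of −0.39 without LBN2 and LBN3. The share that changed was 30.8%, against 19.2% of all DMRs with a gene name, and the shares were not tested against each other. Lgals3, a galectin of epithelia and macrophages, had an intronic DMR at 31.9%, 28.9%, 34.0%, 29.9% and 41.1% at P2 and at 6.49%, 11.5%, 24.1%, 3.55% and 17.6% at P10 (limma adjusted p = 0.0222). The DMR of the water and glycerol channel Aqp3 was at 39.4%, 26.6%, 31.1%, 21.1% and 21.1% at P2 and at 17.2%, 14.1%, 12.5%, 11.2% and 7.58% at P10 (0.0286). Both fell in 5 of 5 pups without overlap, and Capn8 was the other that fell. The intronic DMR of the epithelial adhesion gene Epcam rose from 5.51% ± 2.14 to 13.3% ± 5.72 in 5 of 5 pups (0.0440). Without LBN2 and LBN3 the log-odds change was −1.85 for Lgals3 (−1.94 with 5 pups), −1.41 for Aqp3 (−1.38) and 0.95 for Epcam (1.26).

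Of 16 DMRs near white blood cell genes, 3 were lower and 1, Pik3cd, was higher, with a median of −0.53, and of −0.18 without LBN2 and LBN3. P2ry14, a receptor for UDP-sugars, fell from 41.8% ± 15.3 to 23.1% ± 11 (limma adjusted p = 0.0374). Wipf1, a regulator of actin in blood cells, fell from 49.7% ± 17.3 to 27.0% ± 2.44 (0.0390), a log-odds change of −1.39 that was −0.64 without LBN2 and LBN3. Cxcr1, a chemokine receptor of neutrophils, fell from 30.6% ± 5.23 to 15.1% ± 5.19 (0.0391). P2ry14 and Cxcr1 changed by −1.34 and −1.30 on the log-odds scale, and by −1.04 and −1.36 without these pups.

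The mean level of each marker list moved with the split at P2. Over the 13 epithelial DMRs it was 37.3% and 32.4% at P2 in LBN2 and LBN3, and 49.7%, 46.8% and 43.1% in LBN4, LBN9 and LBN12. At P10 it lay between 36.1% and 41.4% in the 5 pups. Over the 16 white blood cell DMRs it was 47.0% and 45.7% at P2 in LBN2 and LBN3, and 40.7%, 36.4% and 36.4% in the others, and at P10 it lay between 30.4% and 44.2%. Such a split was not particular to marker genes. Over the 9 DMRs of glycan and heparan sulfate enzymes, the P2 mean was 30.2% and 31.7% in LBN2 and LBN3, and 47.1%, 42.6% and 42.8% in the others. The list of NF-κB and TNF signalling showed no such split, with P2 means of 33.3% to 37.1% in the 5 pups. The marker lists hold methylation near marker genes and give no cell shares, and the part of the cell mix in the results above was not tested.

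Lists that the study drew from its principal components were compared by count, beside all DMRs, of which 9.22% were lower and 7.26% higher. In controls of both cohorts, the study had placed 135 DMRs at the end of the age component with loss of methylation. Of these 135, 17 were lower (12.6%) and 3 were higher (2.22%) here, with a median of −0.31, and of −0.55 without LBN2 and LBN3. The mean level of these 135 changed by −13.9 and −5.33 points in LBN4 and LBN9, and rose by 1.46, 5.66 and 1.08 points in LBN2, LBN3 and LBN12. Of the 114 at the end with gain, 1 was lower (0.877%) and 13 were higher (11.4%), with a median of 0.35 (0.62 without LBN2 and LBN3). The mean level of the 114 rose in 5 of 5 pups, by 0.187 to 8.95 points. No LBN pup took part in that choice, but LBN pups had helped to choose the DMRs from which it was made. In all pups, 193 DMRs had the most positive weight on the component set against experience. Of these 193, 17 were lower (8.81%) and 16 were higher (8.29%), with a median of −0.42, and of −0.29 without LBN2 and LBN3. Of the 225 with the most negative weight, 40 were lower (17.8%) and 12 were higher (5.33%), with a median of −0.34, and of −0.24 without LBN2 and LBN3. The changes of these 5 pups had entered the last 2 lists, so their counts are not independent evidence of a direction.

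Changed DMRs were spread unevenly over levels and positions. By mean level over the 10 swabs, 24.0% of 1092 DMRs between 25% and 50% changed, 16.5% of 387 below 25%, 13.8% of 1481 between 50% and 75% and 7.0% of 457 above 75%. Of 907 DMRs that span more than 1 CpG position, 21.6% changed, and of 2510 single CpGs 14.6% did. Among chromosomes with over 50 DMRs, the share ran from 9.52% on chromosome 8 to 23.8% on chromosome 12, where 34 were lower and 11 higher. Neighbouring DMRs moved together: of 34 pairs within 200 base pairs, 32 changed in the same direction on average, and of 110 pairs within 1000 base pairs 90 did, where any pair of DMRs shares a direction in 50.9%. Neighbouring DMRs can share reads and were not treated as independent.

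The change in LBNs was next compared with that in controls of the same cohort, swabbed at the same ages, by limma on the within-pup differences of log-odds. No DMR passed the adjusted p of 0.05 (0 of 3417, 0.0%, with a lowest adjusted p of 0.795), and 181 had an unadjusted p under 0.05. In every alternative fit the number was also 0. The median difference, LBNs minus controls, was 0.19. Of the 315 DMRs lower in LBNs, 97.8% were lower on average in the 6 controls, where 52.9% of all DMRs were lower, and of the 248 higher, 91.1% were higher there, where 47.1% of all were. Controls alone gave 24 DMRs past the threshold (0.702%), and 10 of them were among the 563, all in the same direction, which is 1.78% of the 563 and 41.7% of the 24.

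The DMRs with the smallest p against controls are extremes picked from all DMRs, and none passed after adjustment. At chr9:91958505-91958506, LBNs went from 78.0% ± 12.5 to 76.5% ± 3.23 and controls from 60.9% ± 13.5 to 89.6% ± 9.39. The level rose in 6 of 6 controls and in 1 of 5 LBNs. Its P2 means already lay apart before the assignment to cages. At chr13:34730705-34730717, LBNs rose from 45.3% ± 12.5 to 67.3% ± 6.75 in 5 of 5 pups, and controls went from 54.3% ± 8.05 to 39.7% ± 7.77, rising in 1 of 6. For Pik3cd, controls went from 28.3% ± 11.7 to 26.9% ± 7.06, rising in 4 of 6. The difference in log-odds change was 2.14 for Pik3cd (standard error 0.60), with a limma adjusted p of 0.795, and −2.86 and 2.17 for the DMRs on chromosomes 9 and 13.

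**Figure D5:**
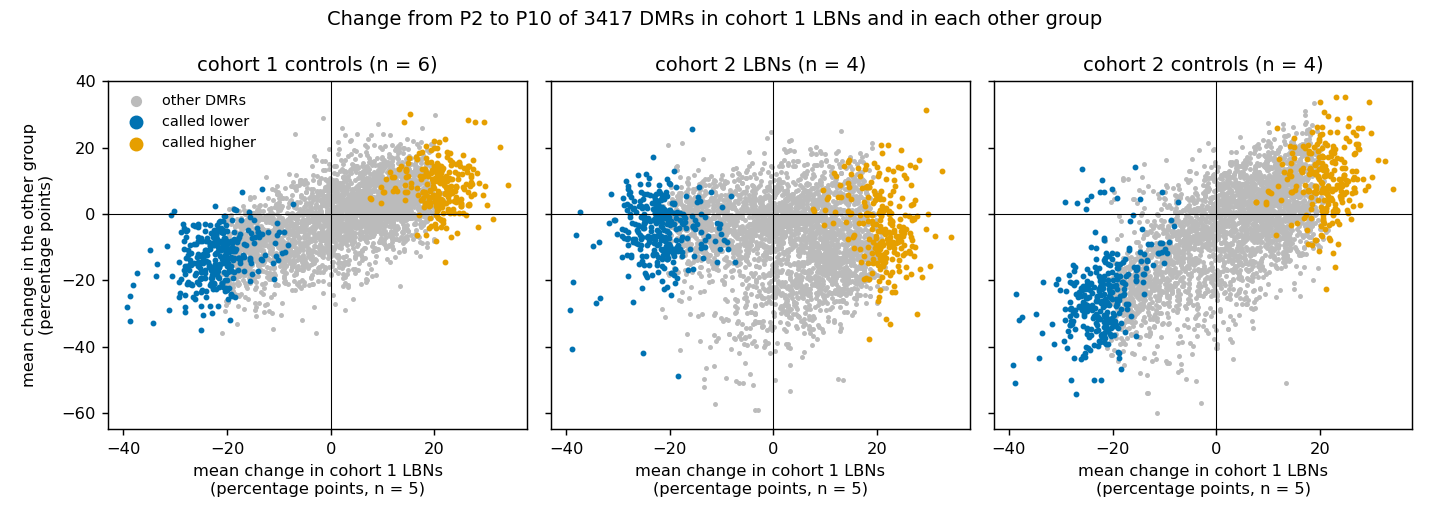
Mean change from P2 to P10 (percentage points) of each of 3417 DMRs in the 5 cohort 1 LBNs (horizontal axis) and in cohort 1 controls, cohort 2 LBNs and cohort 2 controls (vertical axes), with the 315 DMRs called lower and the 248 called higher in colour. Of the 248, 91.1% were also higher on average in cohort 1 controls, 36.7% in cohort 2 LBNs and 86.3% in cohort 2 controls, where 47.1%, 29.7% and 41.1% of all DMRs were higher.

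Against the 4 LBNs of cohort 2, the change differed at 799 DMRs (23.4%). It was more positive in cohort 1 at 711 (20.8%) and more negative at 88 (2.58%), with a median difference of 0.53 over all DMRs. Of the 799, 136 were among the 248 that rose in cohort 1 and 63 among the 315 that fell. The same cohort 1 changes entered both tests, so this overlap is partly built in. The number of DMRs that differed was 242 to 1463 with 1 pup left out and 298 with all 19 pups in a joint fit. Without LBN2 and LBN3 it was 50, all more positive in cohort 1. Cohort 2 LBNs alone gave 568 DMRs past the threshold (16.6%), of which 51 were among the 563 and 33 of these in the same direction (9.06% of the 563 and 8.98% of the 568). Cohort 2 controls alone gave 661 (19.3%), of which 237 were among the 563, all in the same direction (42.1% of the 563 and 35.9% of the 661). Of the 315 lower DMRs, 69.5% were lower on average in cohort 2 LBNs and 95.2% in cohort 2 controls, where 70.3% and 58.9% of all DMRs were lower. The cohorts are separate sets of animals and swabs, so a difference between animals and one between runs of the experiment cannot be told apart.

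At the DMRs with the smallest p in this comparison, cohort 1 LBNs mostly kept a high level that cohort 2 lost. At chr8:126431995-126432028, the P2 levels of LBN2, LBN3, LBN4, LBN9 and LBN12 were 82.5%, 76.1%, 83.7%, 65.4% and 83.6%, and the P10 levels were 80.6%, 81.0%, 84.8%, 79.2% and 81.9%. Cohort 2 LBNs fell from 70.0% ± 9.35 to 16.8% ± 6.66 (difference in log-odds change 3.78, limma adjusted p = 0.00395). Cohort 1 controls fell there by 21.3 ± 6.81 points and cohort 2 controls by 43.7 ± 15.9 points, each in every pup. In an exon of Llgl1, a gene of cell polarity, cohort 1 LBNs went from 79.1% ± 4.84 to 76.2% ± 12.4, with LBN3 alone far down, at 55.9%. Cohort 2 LBNs fell there from 72.8% ± 5.34 to 13.8% ± 2.61 (difference 3.82, limma adjusted p = 0.00741), cohort 2 controls by 56.8 ± 9.79 points and cohort 1 controls by 35.9 ± 15 points.

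The intronic DMR of Dapk1, a kinase of cell death pathways, moved in opposite directions in the LBNs of the cohorts. It rose from 27.8% to 77.8% in LBN2, from 52.6% to 73.3% in LBN3, from 66.7% to 73.6% in LBN4, from 34.8% to 66.7% in LBN9 and from 47.4% to 76.7% in LBN12. In cohort 2 LBNs it fell from 49.1% ± 19 to 19.1% ± 12.0, lower in 4 of 4 pups (difference 3.86, limma adjusted p = 0.00828). Cohort 1 controls rose there by 27.6 ± 21.5 points in 6 of 6 pups, and cohort 2 controls changed by 2.63 ± 14.7 points.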

How the data were processed

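Cheek swabs of the 5 cohort 1 LBN pups at P2 and P10 were analysed, with those of the other 14 pups for comparison. Reads were trimmed with Trim Galore 0.4.3 and aligned to rn6 with Bismark 0.16.3, as the paper and the submitters' processing notes state. The authors kept CpGs with more than 10 reads, called differences between P2 and P10 within each pup at a false discovery rate of 0.05, merged CpGs within 100 base pairs, and kept DMRs shared by at least 2 pups of a group. The deposited values are percent methylation per DMR and swab, before correction for cohort, without read counts, so another coverage minimum could not be tried.

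Percentages were converted to log2((percent + 1)/(100 − percent + 1)). The swabs held 21 values of 0 and 9 of 100. limma 3.58.1 in R 4.3.3 was fitted to the 10 swabs with the pup as a block, and to within-pup differences between groups, two-sided, with Benjamini-Hochberg adjustment over 3417 DMRs at 0.05. The read-count test that the authors ran per pup was not possible on percentages. P-values measure the spread between pups taken as independent. Pups that shared a dam would make them too small. P2 and P10 were paired because the labels give the same pup. Over the DMRs, the deviations of the paired swabs from their group means correlated at −0.086, 0.463, −0.469, 0.335 and 0.413 in LBN2, LBN3, LBN4, LBN9 and LBN12. With the P10 swab of another pup, the highest correlation was 0.478, 0.488, 0.444, 0.230 and 0.312 in the same order. In LBN2, LBN3 and LBN4 it was above that of the pup's own pair. Means per pup were compared by exact sign flips. The fit was tested on simulated data with planted changes. Their noise was drawn separately for each DMR, without a split of swabs like that of LBN2 and LBN3 at P2. The simulation therefore does not show how the fit behaves under such a split. Tables and figures were made in Python 3.11.15 (numpy 2.4.6, with pandas 2.3.3 and matplotlib 3.10.9).

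Named DMRs were the 12 largest falls and 12 largest rises past the threshold with 5 of 5 pups in one direction, up to 4 DMRs of each list by p, DMRs of genes with at least 3 DMRs of which 1 passed, and the 5 smallest p of each group comparison. The promoter DMRs were named after their values were seen, being all those that passed. Gene names and places came from the study's supplementary lists by exact position, and promoters from RefSeq, which held 19 of 28. The members, gene lists and rules were chosen with earlier results of these data known. Alternatives were other scales, pseudocounts, filters, variance models, no block, all 19 pups in 1 fit and each pup left out; leaving out LBN2 and LBN3 together was added after the data were seen.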

Additional observations from a re-analysis of the deposited data

Results flagged for a closer look

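Single pups stood far from the other 4 at 15 of 222 groups of 5 values examined (6.76%), where chance flags about 1 in 20. Each was set apart by a gap to its nearest neighbour that took up most of the range. LBN4 was the pup apart in 4 of the changes from P2 to P10: Capn8 changed by −2.05 points against −49.7 to −37.8 in the others, Ltbp1 by −15.4 against 25.3 to 32.3, the DMR at chr9:91958505-91958506 by 25.3 against −14.1 to −2.78, and the mean of the other developmental transcription factors by 4.76 against −4.55 to −1.85. At P10, LBN4 was at 82.1% for the DMR on chromosome 9, against 74.4% to 76.3%.

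LBN3 was apart in the change of Fzd7 (24.2 points against 13.6 to 16.5), Xylt2 (13.8 against −27.3 to −22.2) and the Skor1 DMR at chr8:68026358-68026359 (−14.7 against −2.89 to 0.385), and in the P10 level of Cxcr1 (24.0% against 10.6% to 14.4%). LBN2 was apart in the change of Nrp2 (−56.4 points against −20.7 to −8.60) and in the P10 mean of the glycan and heparan sulfate enzymes (34.3% against 39.5% to 40.7%). LBN12 was apart in the P10 levels of Pik3cd (73.9% against 45.4% to 52.7%) and of the exonic Bcl3 DMR (47.6% against 27.3% to 32.8%) and in the P2 level of B3gnt2 (54.8% against 35.2% to 39.7%). LBN9 was apart in the P2 level of Meis1 (27.1% against 8.54% to 12.8%).

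The change differed between the LBNs of the cohorts, by the limma test of the difference itself, at 799 DMRs. The differences in log-odds change, cohort 1 minus cohort 2, were 3.78 at chr8:126431995-126432028, 3.82 at Llgl1, 3.86 at Dapk1, 3.28 at chr12:42929183-42929184 and 2.85 at chr5:144259939-144259940. At the last 2, cohort 1 LBNs changed by 5.83 ± 4.11 and −0.370 ± 3.43 points, cohort 2 LBNs by −41.4 ± 11.6 and −35.0 ± 5.81, and cohort 2 controls by −27.0 ± 16.5 and −33.6 ± 2.59.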

How the results depend on the processing

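The number of DMRs that changed in cohort 1 LBNs was 563. On log2(P10/P2) without DMRs at 0 it was 106 of 3400 (the cause was not tested), and without the pup as a block it was 157. In the other 6 alternatives with 5 pups it lay between 401 and 681. With 1 pup left out it lay between 0 (LBN3) and 1539 (LBN4), and without LBN2 and LBN3 it was 0. The difference from cohort 1 controls gave 0 in every alternative, with 90 to 421 DMRs at an unadjusted p of 0.05. The difference from cohort 2 LBNs gave 799, 298 with all 19 pups in 1 fit, 242 (without LBN4 of cohort 2) to 1463 (without LBN4 of cohort 1) with 1 pup left out, and 50 without LBN2 and LBN3. The mean change over all DMRs lay between 0.521 and 1.66 points with 1 pup left out and was 0.718 without LBN2 and LBN3, in the same direction and not past the threshold in any alternative. Fewer pups also mean fewer degrees of freedom, and its part in the lost calls was not tested. The 24 largest changes had been picked for moving the same way in 5 of 5 pups, so no alternative could reverse their sign. On log2(P10/P2) 1 of them was left out for a level of 0. Of the 24, 12, 0, 24, 24 and 7 passed the threshold without LBN2, LBN3, LBN4, LBN9 and LBN12. The log-odds change of Tet3, 0.00 with 5 pups, was −0.000891 with a pseudocount of 5, −0.75 without LBN2 and LBN3, and between −0.49 and 0.43 with 1 pup left out. No read counts were given, so levels from few reads and from many reads were weighted alike.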
